A study of Mus musculus with 4 samples.

Results

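The 9 replication-independent histone variant genes of mouse described here are H2afj, H2afz, H2afv, H2afx, H2afy, H2afy2, H3f3a, H3f3b and H1f0. They are 9 of the 14949 genes in the table and hold 47 of its 46637 isoforms assigned to a gene. The list was set by name, with earlier results of these data known. H2afj was chosen by its low read count in the Trp53-deleted libraries, so its values there are a description with no test. Nanopore long-read cDNA-PCR libraries were made from neural stem cells grown as neurospheres from embryonic neocortices, 1 library per genotype. The control was Tut1f/f cells, homozygous for a floxed Tut1 allele, given empty lipid nanoparticles (LNP). The other libraries came from cells given LNP with Cre mRNA for 3 days. Tut1f/f;Cre carries the Tut1 deletion, which removes an exon between loxP sites. Trp53f/f;Cre carries the Trp53 deletion, and in Tut1f/f;Trp53f/f;Cre, called the double-deleted library, both were to be removed. All 4 cultures had LNP, and all 3 Cre libraries had Cre mRNA while the control had none, so a deletion and the delivery of Cre mRNA cannot be told apart in a comparison with the control. Both libraries with floxed Trp53 also came from other mouse lines than the control. Each genotype is 1 library, and nothing in the labels tells how many embryos or cultures it holds, so the comparisons of 2 libraries are no test of a genotype, and their intervals cover counting error only. The fits over all 4 libraries take their spread from a single residual degree of freedom. In such bulk samples fewer cells of a type and less RNA per cell cannot be told apart.

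Most histone genes are transcribed in S phase and give mRNAs without a poly(A) tail, to supply nucleosomes behind the replication fork. The variants described here are made outside S phase too, from polyadenylated mRNAs, several of them spliced, and are exchanged into chromatin by dedicated chaperones and remodellers. H2A.Z (H2afz and H2afv) sits at promoters and enhancers, H3.3 (H3f3a and H3f3b) marks active genes and is also placed at telomeres, H2AX (H2afx) is phosphorylated around DNA breaks and is also made from a mRNA without a poly(A) tail, macroH2A (H2afy and H2afy2) is enriched on repressed chromatin, H1.0 (H1f0) is a linker histone of slowly dividing and differentiated cells, and H2A.J (H2afj) is an H2A variant that accumulates in senescent cells. TUT1 is the enzyme that adds uridines to the end of the U6 RNA of the spliceosome.

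The sequences that tell the paired genes apart are given first, because the pairs encode the same or nearly the same protein and only the nucleotides separate their reads. H3f3a (chr1:180803080-180811926, minus strand, coding region with introns) and H3f3b (chr11:116023410-116024009, minus strand) each have 408 coding bases, of which 95 differ (76.7% identity), 81 of them at the last base of a codon. The first 90 coding bases follow, in GRCm38 from GENCODE, with bases that differ between the pair in capitals.
H3f3a: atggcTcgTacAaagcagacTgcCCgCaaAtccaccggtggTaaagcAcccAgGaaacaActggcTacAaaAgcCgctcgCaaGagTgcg
H3f3b: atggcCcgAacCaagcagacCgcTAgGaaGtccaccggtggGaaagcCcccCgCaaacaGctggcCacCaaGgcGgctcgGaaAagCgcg
H2afz (chr3:137864694-137866444, plus strand) and H2afv (chr11:6428374-6444339, minus strand) each have 384 coding bases, of which 80 differ (79.2% identity), and 73 of 128 codons are written differently.
H2afz: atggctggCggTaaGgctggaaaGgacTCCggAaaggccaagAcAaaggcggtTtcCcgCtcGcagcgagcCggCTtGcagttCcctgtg
H2afv: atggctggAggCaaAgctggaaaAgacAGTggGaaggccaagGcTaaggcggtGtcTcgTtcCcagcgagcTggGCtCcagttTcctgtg
A read covering these stretches carries 20 differences between the H3.3 genes and 19 between the H2A.Z genes. The other pair of sequences is the choice between 2 coding exons in H2afy, on the minus strand of chromosome 13. ENSMUST00000016081 carries a 100-base exon (chr13:56089758-56089857) and ENSMUST00000045788 a 91-base exon (chr13:56088252-56088342) in its place.
ENSMUST00000016081 exon: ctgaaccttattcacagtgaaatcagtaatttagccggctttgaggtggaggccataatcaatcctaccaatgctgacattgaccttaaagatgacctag
ENSMUST00000045788 exon: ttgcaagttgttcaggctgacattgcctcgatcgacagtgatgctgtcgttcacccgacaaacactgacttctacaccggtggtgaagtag
These exons encode the part of the macrodomain in which macroH2A1.2 and macroH2A1.1 differ, and only macroH2A1.1 binds ADP-ribose.

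The libraries held 2863392 to 4244467 reads assigned to genes. Of all reads 17.2% carried no gene name in the control and 27.3% to 30.2% in the Cre libraries. Mitochondrial genes took 2.5% of gene reads in the control and 4.82% to 5.77% in the Cre libraries. One ribosomal RNA gene took 18.7% of gene reads in the control and 5.46% to 9.75% in the Cre libraries. The targeted genes were read to check the labels. Trp53 had 44.0 CPM (TMM-scaled read counts relative to library size; 95% Poisson interval 37.7 to 51.0) in the control, 22.1 in Tut1f/f;Cre, 2.87 in Trp53f/f;Cre and 6.44 in the double-deleted library, lowest in both Trp53-deleted libraries. Tut1 had 37, 11, 14 and 27 reads in the same order, so the Trp53f/f;Cre library (4.02 CPM, 2.2 to 6.74) was low although its Tut1 was not deleted. The double-deleted library (9.15 CPM, 6.03 to 13.3) was near the control (9.30 CPM, 6.55 to 12.8). Both intervals overlapped that of the control. Counts per gene do not resolve the floxed exon, and every direction drawn from Tut1 status below rests on the labels. Of 4 measured p53 target genes, all were lower in both Trp53-deleted libraries and 2 in Tut1f/f;Cre. The neural stem cell markers were all read (8 of 8 in each library), but they were not level. Their sum, 11300 to 13081 CPM, was mostly Fabp7 (9381 to 11381 CPM), and their median log2 ratios to the control were 0.99, 0.87 and 0.43. Hes1 was higher in all 3 Cre libraries (149 CPM in the control and 500, 455 and 452), and Vim was lower in both Trp53-deleted libraries (1265 CPM in the control, 758 in Tut1f/f;Cre, then 619 and 622). The part of these moves in the members' ratios was not tested. Markers of microglia and endothelium were at 0 in every library and fibroblast markers had at most 1 read.

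Gene comparisons used the ratio of CPM between 2 libraries, and a gene was counted as different at 2-fold or more with a 95% interval that excluded no change. All 9 members were among the 9882 genes that passed the filter on low counts. In each comparison with the control, 1 member was lower (H2afj), 1 was higher (H2afy2) and 7 were not called. The background was 13.3% of genes lower and 12.7% higher in Tut1f/f;Cre, 15.3% and 12.5% in Trp53f/f;Cre, and 9.76% and 10.3% in Tut1f/f;Trp53f/f;Cre, and nothing is read from the members' counts, since H2afj was chosen by its fall and H2afy2, with 1 read in the control, passed the filter only through the Cre libraries in which it was higher. These comparisons share the control library. The median log2 ratio of the 9 members was -0.36 in Tut1f/f;Cre, -0.19 in Trp53f/f;Cre and -0.59 in Tut1f/f;Trp53f/f;Cre, and the medians of all measured genes were -0.01, -0.02 and -0.01. Their summed level was 6819 CPM in the control and 5071, 5562 and 5967 CPM in the Cre libraries. The members' medians and sums include H2afj and H2afy2, so they are a description only. In the double-deleted library none of the members was called against Trp53f/f;Cre (background 2.56% lower and 4.68% higher), and 1, H2afj, was lower against Tut1f/f;Cre (background 2.27% lower and 2.23% higher).

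**Figure D1:**
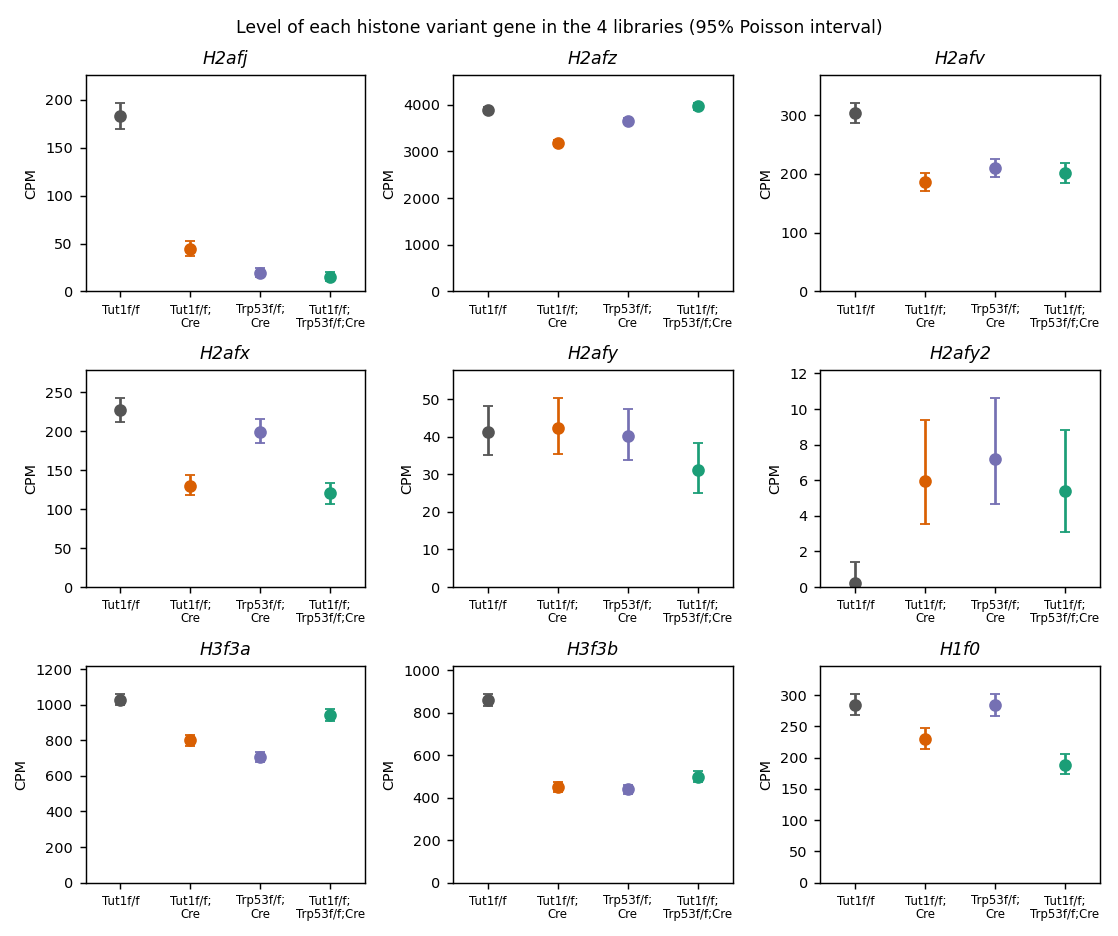
Level of each of the 9 genes in CPM (y axis, from 0) in the 4 libraries (x axis), with points for the 1 library of each genotype and bars for the 95% Poisson interval. H2afj stands at 183 CPM in the control and at 44.2 or below in the Cre libraries, H2afx and H1f0 are lowest in the libraries labelled as Tut1-deleted, and H2afz lies between 3180 and 3966.

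**Figure D2:**
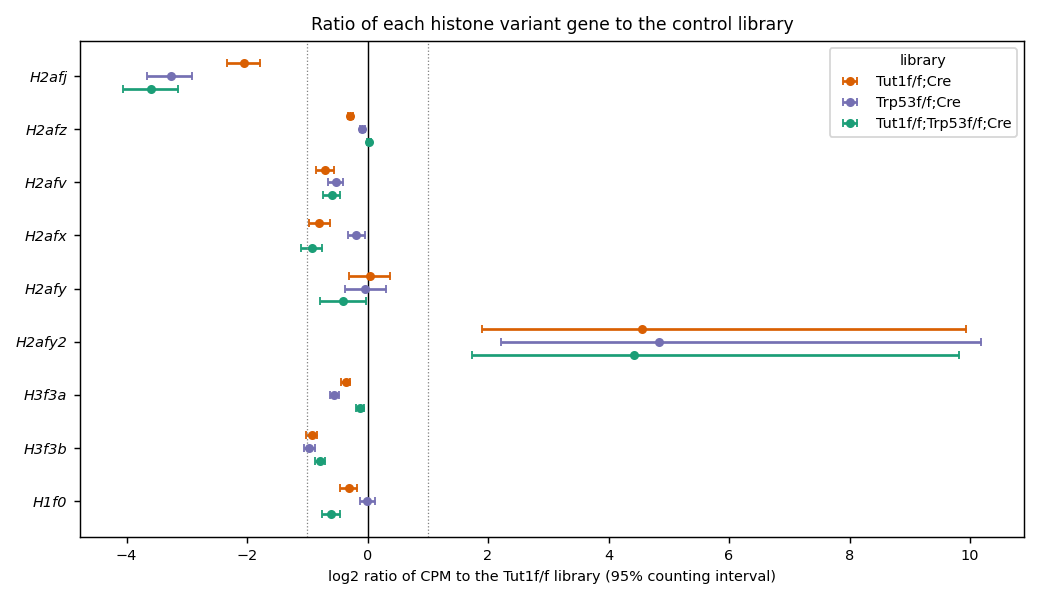
log2 ratio of CPM to the Tut1f/f library (x axis) for each gene (y axis) in the 3 Cre libraries, with 95% counting intervals and dotted lines at 2-fold. H2afj lies left of the dotted line and H2afy2 right of it in all 3 libraries, and the 7 other genes lie between the lines.

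H2afj, the H2A.J gene (ENSMUSG00000060032, chr6:136808244-136810074, plus strand), had 729 reads in the control, 134 in Tut1f/f;Cre, 66 in Trp53f/f;Cre and 45 in the double-deleted library. The levels were 183 CPM (95% interval 170 to 197), 44.2 (37.1 to 52.4), 18.9 (14.6 to 24.1) and 15.3 (11.1 to 20.4), so the control stood apart from every Cre library. The order was control, Tut1f/f;Cre, then both Trp53-deleted libraries, whose intervals overlapped. H2afj was 4.14-fold lower in Tut1f/f;Cre than in the control (3.44 to 5.02), 9.68-fold lower in Trp53f/f;Cre (7.52 to 12.6) and 12.0-fold lower in Tut1f/f;Trp53f/f;Cre (8.89 to 16.6). Between the Trp53-deleted libraries the log2 ratio was -0.31 (-0.89 to 0.26), and it was 1.22 (0.79 to 1.67) for Tut1f/f;Cre against Trp53f/f;Cre. Ribosomal RNA was 18.7%, 9.75%, 8.91% and 5.46% of gene reads in the same order of libraries. The 4 astrocyte markers summed to 49.5, 11.9, 6.89 and 31.5 CPM, with reads for 2 of them in the control and 3 in each Cre library, and they did not move together. Aldh1l1 had 47.0, 5.28, 3.16 and 24.1 CPM, S100b went from 2.51 CPM in the control to 5.28, 2.87 and 7.12, and Aqp4 had 0 reads in the control and at most 4 elsewhere. With ribosomal RNA and mitochondrial genes left out the 3 log2 ratios to the control were -2.05, -3.25 and -3.60, and the part of the astrocyte markers was not tested. Nearly all reads, 97.0% to 100% in each library, came from the single annotated coding isoform ENSMUST00000074556. Reads of Gm44364, which overlaps the gene, cannot be told apart where they share sequence.

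The sequence before the H2afj start is shown because H2afj had the lowest ratios to the control among the members. The RefSeq window of 250 bases before the start (GRCm38.p6, chr6:136807998-136808247, plus strand) is printed with CCAAT on either strand in capitals.
H2afj promoter: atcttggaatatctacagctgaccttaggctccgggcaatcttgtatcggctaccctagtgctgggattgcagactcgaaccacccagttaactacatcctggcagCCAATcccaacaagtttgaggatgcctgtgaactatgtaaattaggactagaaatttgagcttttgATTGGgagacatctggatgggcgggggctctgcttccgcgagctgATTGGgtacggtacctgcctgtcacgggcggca
It holds 3 CCAAT matches, starting 144, 78 and 33 bases before the start, and 2 GGGCGG matches, 60 and 8 bases before it. Among the 8 members with a RefSeq promoter, 5 held CCAAT (H2afj, H2afz, H2afv, H3f3a and H3f3b) and 5 held GGGCGG, where 33.8% and 32.7% of all 32851 promoter windows did. TATAAA was found in 1 member, H3f3b, and in 12.4% of windows. The p53 half-site, searched by its consensus on both strands, was found in none of the 8 and in 7.13% of windows, which says only that these letters are not in these windows. No motif overlapped another in the H2afj window, and H2afx had no promoter entry.

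The genes with the pattern most like H2afj were ranked over 5585 genes by the distance of their 3 log2 ratios to the control from those of H2afj. The nearest were Bola3 (distance 0.95; 254, 26, 22 and 21 reads in the order used above), Trnau1ap (1.07), Fscn1 (1.10), Cnp (1.12) and Lars2 (1.12). Fscn1, an actin-bundling protein, went from 437 reads in the control to 71, 67 and 46. All 5 were lower in every Cre library, which the ranking itself fixes. Between Tut1f/f;Cre and Trp53f/f;Cre the log2 ratio of H2afj to the control went from -2.05 to -3.27, and that of Bola3 from -2.90 to -3.34.

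H2A.Z is encoded by H2afz and H2afv. H2afz (ENSMUSG00000037894) had 15473, 9632, 12754 and 11702 reads in the order used above, or 3890, 3180, 3660 and 3966 CPM. Its log2 ratio to the control was -0.29 (-0.33 to -0.25) in Tut1f/f;Cre and 0.03 (-0.01 to 0.06) in Tut1f/f;Trp53f/f;Cre, and scaling by the library total moved the latter to 0.16 and that of Trp53f/f;Cre from -0.09 to 0.03. H2afv (ENSMUSG00000041126) had 303 CPM (286 to 321) in the control and 186, 210 and 201 CPM in the Cre libraries, which did not overlap the control and overlapped each other. Its log2 ratios were -0.70 (-0.85 to -0.56), -0.53 (-0.66 to -0.40) and -0.59 (-0.74 to -0.45). The share of H2A.Z reads that came from H2afv was 7.23% (95% Wilson interval 6.84 to 7.63) in the control, 5.53% (5.1 to 5.99) in Tut1f/f;Cre, 5.42% (5.05 to 5.82) in Trp53f/f;Cre and 4.82% (4.46 to 5.22) in Tut1f/f;Trp53f/f;Cre. This share does not depend on how libraries are scaled, and all 3 Cre libraries lay below the control.

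H3.3 is encoded by H3f3a and H3f3b, which make the same protein. H3f3a (ENSMUSG00000060743) had 4097, 2425, 2458 and 2781 reads, or 1030 (999 to 1062), 801 (769 to 833), 705 (678 to 734) and 943 CPM (908 to 978), highest in the control and lowest in Trp53f/f;Cre. Its log2 ratios to the control were -0.36 (-0.44 to -0.29), -0.55 and -0.13, and the last turned to 0.01 with scaling by the library total. H3f3b (ENSMUSG00000016559) had 3414, 1365, 1525 and 1467 reads, or 858 (830 to 888), 451 (427 to 475), 438 (416 to 460) and 497 CPM (472 to 523). All 3 Cre libraries were below the control, by log2 ratios of -0.93 (-1.02 to -0.84), -0.97 (-1.06 to -0.88) and -0.79 (-0.88 to -0.70), just short of the 2-fold limit. H3f3b gave 45.5% of H3.3 reads (44.3 to 46.6) in the control and 36.0% (34.5 to 37.6), 38.3% (36.8 to 39.8) and 34.5% (33.1 to 36.0) in the Cre libraries. H3f3b is counted almost wholly through a variant form of its annotated transcript, and with plain transcripts alone only 24, 6, 11 and 7 reads remain, which turn the ratio of the double-deleted library to Trp53f/f;Cre from 0.18 to -0.48. H3f3a overlaps the antisense gene H3f3aos, and without strand in the counting their reads cannot be told apart.

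H2afx and H1f0 were the 2 members lower in both contrasts of a library labelled as Tut1-deleted with its counterpart, with both intervals excluding 0, which held for 2.52% of the 9882 measured genes. They are singled out here after their values were seen, so nothing is read from their number. H2afx (ENSMUSG00000049932), whose protein is phosphorylated at DNA breaks, had 903, 394, 694 and 353 reads. Its levels were 227 (212 to 242), 130 (118 to 144), 199 (185 to 215) and 120 CPM (107 to 133), so Tut1f/f and Trp53f/f;Cre lay above the other 2 libraries without overlap. The log2 ratio of Tut1f/f;Cre to Tut1f/f was -0.80 (-0.98 to -0.63) and that of Tut1f/f;Trp53f/f;Cre to Trp53f/f;Cre was -0.74 (-0.92 to -0.55). H1f0 (ENSMUSG00000096210) had 285 (269 to 302), 230 (214 to 248), 284 (266 to 302) and 188 CPM (173 to 205). Its log2 ratios over the same contrasts were -0.31 (-0.45 to -0.17) and -0.59 (-0.74 to -0.44), and that of Trp53f/f;Cre to the control was -0.01 (-0.13 to 0.12). Neither gene reached 2-fold in either contrast, and each is a single isoform in the table. H2afx overlaps Gm44335 and H1f0 overlaps Gm49544, and their reads cannot be told apart where they share sequence.

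The macroH2A genes gave few reads. H2afy (ENSMUSG00000015937, macroH2A1) had 164, 128, 140 and 92 reads, or 41.2 (35.2 to 48.1), 42.3 (35.3 to 50.2), 40.2 (33.8 to 47.4) and 31.2 CPM (25.1 to 38.2), with all 4 intervals overlapping. Its log2 ratio of the double-deleted library to the control was -0.40 (-0.79 to -0.03). H2afy2 (ENSMUSG00000020086, macroH2A2) had 1 read in the control and 18, 25 and 16 in the Cre libraries. The ratios to that single read were 23.6-fold (3.73 to 985), 28.5-fold (4.67 to 1172) and 21.6-fold (3.35 to 904). The Cre libraries had 5.94, 7.17 and 5.42 CPM with overlapping intervals, and the control 0.251 CPM (0.00637 to 1.4) lay below them all. H2afy2 overlaps Aifm2, and reads of that gene cannot be told apart where they share sequence. With a mean of 50 reads required H2afy2 is left out.

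In the additive edgeR quasi-likelihood fit of Tut1 and Trp53 status over all 4 libraries, which leaves 1 residual degree of freedom, 0 of 9882 genes (0%) were called for Tut1 status and 1 (0.0101%) for Trp53 status. The latter was Rpl3-ps1, a pseudogene named here after its values were seen. At an unadjusted p under 0.05 edgeR had 187 and 153 genes, and DESeq2 called 0 and 1 with 70 and 62. For Tut1 status the edgeR log2 change of H2afx was -0.77 (SE 0.461, adjusted p = 1), and none of the members passed. H2afj had -1.23 (SE 0.542) for Tut1 status and -2.43 (SE 0.556) for Trp53 status, both given as a description, since the fit uses the libraries by which it was chosen. The other 8 members had log2 changes for Trp53 status from -0.42 (H3f3b) to 1.60 (H2afy2), all with edgeR adjusted p = 1. In an edgeR fit of Trp53 status alone without the Tut1f/f;Cre library, which compares both Trp53-deleted libraries with the control only, 1435 genes passed. Of the 8 members other than H2afj, H2afy2 passed (log2 change 4.47), and H3f3b (-0.88) was under an adjusted 0.05 but short of 2-fold. There the control side is 1 library, assumed to vary like the others, that also differs in Cre mRNA and mouse line, so nothing is read from that fit about Trp53 status.

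Isoform usage is independent of the gene totals used to pick H2afj. Of the 47 member isoforms 34 had at least 10 reads over the 4 libraries. Reads of each isoform against the rest of its gene were compared between libraries with a two-sided Fisher's exact test, called at an adjusted p under 0.05 and at least 10 points. Of 24 member isoforms tested against the control, 1 was called in each comparison, where the background was 8.66% in Tut1f/f;Cre, 9.12% in Trp53f/f;Cre and 6.49% in Tut1f/f;Trp53f/f;Cre. It was ENSMUST00000016081, the H2afy transcript with the 100-base exon shown above. It gave 112 of 164 H2afy reads in the control (68.3%, Wilson interval 60.8 to 74.9), 60 of 128 in Tut1f/f;Cre (46.9%, 38.4 to 55.5), 68 of 140 in Trp53f/f;Cre (48.6%, 40.4 to 56.8) and 36 of 92 in Tut1f/f;Trp53f/f;Cre (39.1%, 29.8 to 49.3). The differences were -21.4, -19.7 and -29.2 points (Fisher's exact test, adjusted p = 0.00427, 0.00744 and 0.000238), and all 3 Cre libraries lay below the control. ENSMUST00000045788, with the 91-base exon, had 3, 6, 6 and 3 reads, too few for the test. A further H2afy isoform named after a read rather than an annotated transcript held 17.1%, 25.8%, 22.9% and 23.9% of reads, and its structure is not given in the table. Counted over annotated transcripts only, the difference shrank to -7.16 points in Tut1f/f;Cre (adjusted p = 0.284) and -9.12 in Trp53f/f;Cre (adjusted p = 0.161), and it was -17.5 points in Tut1f/f;Trp53f/f;Cre (adjusted p = 0.0285). No member isoform was called between the double-deleted library and Trp53f/f;Cre (0 of 23) or Tut1f/f;Cre (0 of 24). Over all isoforms tested, 218 of 17571 and 26 of 17348 were called, so nothing is read from these counts. These tests compare the reads of 2 libraries, not genotypes.

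Smaller shifts did not reach 10 points, and they went both ways. At an adjusted p under 0.05 alone, 5, 9 and 6 of the 24 member isoforms passed. The share of all isoforms at that setting was not counted, so nothing is read from these counts. An H2afz isoform annotated for nonsense-mediated decay, ENSMUST00000172696-0, fell from 6.66% of reads to 5.53%, 5.48% and 5.34% (Fisher's exact test, adjusted p = 0.00439, 0.000762 and 0.000224). The H3f3a isoform with a retained intron, ENSMUST00000159441, had 4, 24, 26 and 18 reads, 0.0976% of H3f3a reads in the control and 0.990%, 1.06% and 0.647% in the Cre libraries (Fisher's exact test, adjusted p = 6.6e-06, 1.5e-06 and 0.00218). The control interval (0.0380% to 0.251%) lay below the others. Summed over the 9 members, retained-intron isoforms took 0.0295% of reads in the control and 0.165% to 0.182% in the Cre libraries, and over all genes 0.926% and 1.45% to 1.55%. The members' sums were 8, 28, 35 and 29 reads, of which this H3f3a isoform gave 4, 24, 26 and 18. Over the members Trp53f/f;Cre (0.181%) and Tut1f/f;Cre (0.182%) had overlapping intervals, and over all genes Trp53f/f;Cre was lower (1.45% and 1.55%). The H2afv isoform ENSMUST00000093346 went from 3.73% of reads in the control to 7.45%, 8.89% and 8.43%. The main H2afv isoform, ENSMUST00000109737, went from 83.4% to 81.9%, 75.8% and 78.9%. The additive diffSpliceDGE fit over 21738 isoforms called none for Tut1 or Trp53 status (218 and 152 at an unadjusted p under 0.05), with adjusted p = 1 for each of the 30 member isoforms fitted.

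**Figure D3:**
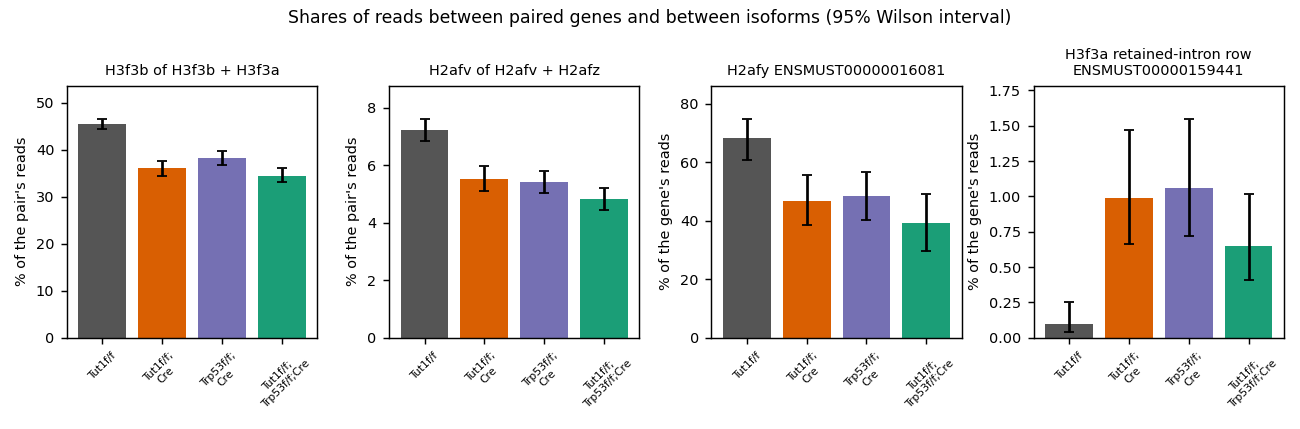
Percent of reads (y axes, from 0, with their own scales) in the 4 libraries for H3f3b among H3.3 reads, H2afv among H2A.Z reads, ENSMUST00000016081 among H2afy reads and the retained-intron isoform among H3f3a reads, with 95% Wilson intervals. The control is highest in the first 3 panels and lowest in the retained-intron panel, and the 3 Cre libraries lie on the same side of it.

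Transcript length moved with the ratios over all genes. Genes whose most-read annotated transcript is under 1000 bases had a median log2 ratio of 0.27, 0.28 and 0.27 in the 3 Cre libraries, those of 1000 to under 2000 bases -0.33, -0.34 and -0.18, those of 2000 to under 3000 bases -0.24, -0.28 and -0.20, and those of 5000 bases and over 0.36, 0.35 and 0.26. The members' main transcripts are 1069 (H2afz) to 2841 bases (H3f3a) long, in the classes with the lowest medians. Set against genes of its own length class, H2afv (-0.70, -0.53 and -0.59) lay below the median in all 3 libraries, and so did H2afj and H3f3b, whereas H2afz lay above it in all 3 and H2afy in both single-deleted libraries. The part of length in the members' ratios was not tested.

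**Figure D4:**
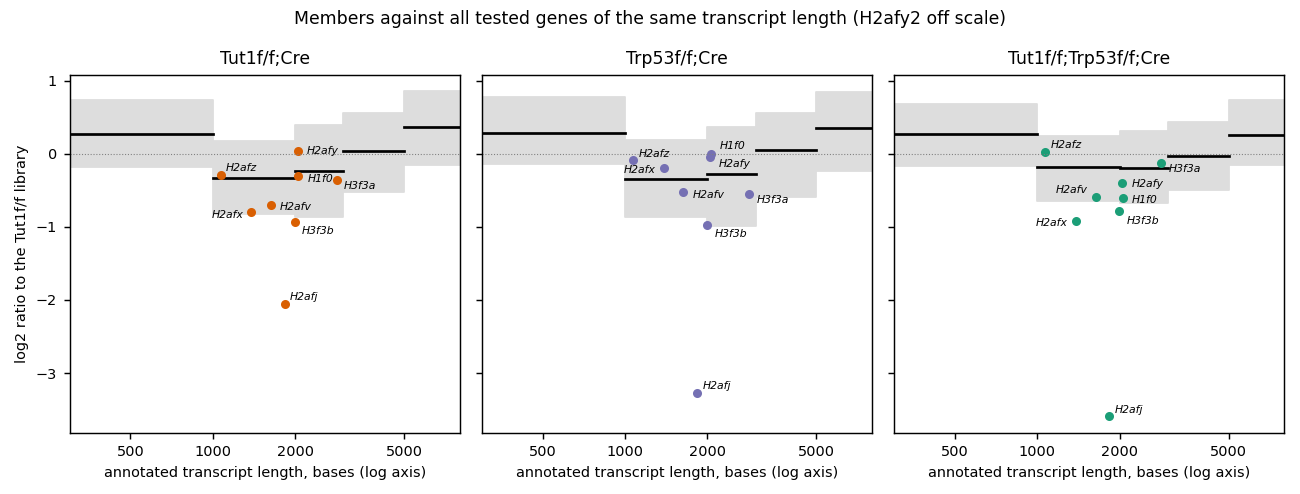
log2 ratio to the Tut1f/f library (y axis) against annotated transcript length in bases (x axis, log scale) for 8 members as points, in the 3 Cre libraries. Black lines are the medians and grey boxes the middle 50% of all measured genes in each length class, and H2afj is the point far below them. H2afy2, with ratios of 4.43 to 4.83, is left out.

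Reads of all 46 replication-dependent histone genes summed to 495 CPM in the control and 1080, 1217 and 1171 CPM in the Cre libraries. Of the 20 that passed the filter on low counts 7, 9 and 8 were higher than the control (12.7%, 12.5% and 10.3% of all measured genes) and 0, 1 and 0 lower (13.3%, 15.3% and 9.76%), with medians of 0.72, 1.09 and 0.83. These counts and medians are partly set by the filter, since 5 of the 20 lay under its cutoff of 3.12 CPM (unscaled) in the control and passed through the Cre libraries, while Hist1h2ag (27 reads in the control and 4, 7 and 6) did not pass. Hist1h1b, a linker histone, had 72.9 CPM in the control and 562, 592 and 640 CPM in the Cre libraries. Hist1h2ab, which passed the filter through the Cre libraries only, had 4 reads in the control and 83, 147 and 105. Hist1h4d had 29.2, 138, 170 and 140 CPM. Hist3h2a, the gene lower in Trp53f/f;Cre, had 143 CPM in the control and 80.2, 71.2 and 74.9. These mRNAs mostly lack a poly(A) tail, and cDNA-PCR kits prime on poly(A). The median annotated length of the 20 was 659 bases, in the length class with higher ratios over all genes.

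The counts of the following lists stand against the same shares of all measured genes. All gene lists in these Results were chosen with earlier results of these data known, so their counts and medians are a description. Among factors that place H3.3, 4, 5 and 3 of 8 were higher in the 3 Cre libraries and 0, 0 and 1 lower, with medians of 0.98, 1.14 and 0.80. Ubn1 and Ubn2, subunits of the HIRA complex, and Atrx, the remodeller of telomeric H3.3, were higher in all 3. Their most-read annotated transcripts are only 855, 293 and 1579 bases long, and which isoforms carried the higher sums was not tested. Ubn2 had 16 reads in the control and 70, 111 and 70. Atrx had 126 CPM in the control and 325, 293 and 261. Daxx, the partner of Atrx, was lower in Tut1f/f;Trp53f/f;Cre (25.9 CPM in the control, 12.5 there).

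Factors that exchange H2A.Z went both ways, with 3, 3 and 3 of 12 higher and 3, 3 and 1 lower (medians -0.34, -0.24 and -0.16). Srcap and Ep400, the ATPases that load H2A.Z, and Ino80, a related remodeller, were higher in all 3 libraries. Ino80, with 12 reads in the control, passed the filter through the Cre libraries only. Ruvbl2, an AAA+ ATPase shared by these complexes, was lower in all 3, with 453 reads in the control and 103, 111 and 163. Of 13 general histone chaperones none was higher and 3, 3 and 1 were lower (medians -0.36, -0.47 and 0.05). Nap1l4, a nucleosome assembly protein, had 188 CPM in the control and 51.2, 36.7 and 56.3. Ssrp1, a FACT subunit, and Asf1b were lower in Tut1f/f;Cre and Trp53f/f;Cre. The double-deleted library had log2 ratios to Trp53f/f;Cre of 0.67 (0.41 to 0.93) for Ssrp1 and 0.88 (0.41 to 1.35) for Asf1b, short of 2-fold.

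Of 9 measured genes of H2AX signalling, 3, 3 and 2 were higher and 1, 1 and 0 lower, with medians of 0.28, 0.51 and 0.78. Of the higher ones Atr and Prkdc lay under the filter's cutoff in the control and passed through the Cre libraries only, so these counts and medians are partly set by the filter. Atr, a kinase that phosphorylates H2AX, had 11, 31, 28 and 19 reads, and Baz1b, a kinase for another residue of H2AX, had 28.7 CPM in the control and 58.8, 76.6 and 63.7. Kat5, an acetyltransferase, had 22.1 CPM in the control and 7.92, 5.74 and 11.9. Of the 5 regulators of the H2afy exon choice, 1, Qk, was higher in every Cre library (54.1 CPM in the control and 202, 184 and 176), and the medians were 0.39, -0.09 and -0.41. The part of transcript length in these lists, and of single isoforms in these gene sums, was not tested.

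**Figure D5:**
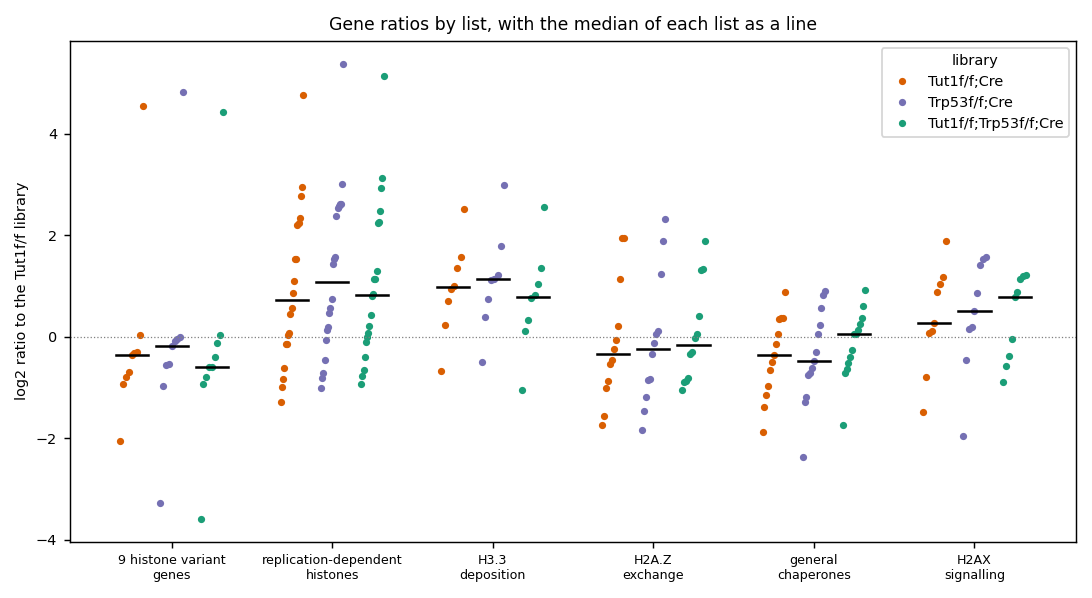
log2 ratio to the Tut1f/f library (y axis) of each measured gene in 6 groups (x axis), with colours for the 3 Cre libraries and black lines for the medians. The 9 variant genes have medians below 0 in all 3 libraries, and replication-dependent histones (0.72 to 1.09) and H3.3 deposition factors (0.80 to 1.14) above 0. The first group includes H2afj, chosen by its low reads, and H2afy2, which passed the filter through the Cre libraries only.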

How the data were processed

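Total RNA from 4 libraries' cells, 1 per genotype, was read by Nanopore cDNA-PCR sequencing. The authors deposited whole-number read counts per isoform, not normalized, with mm10 named as the build in the submitters' processing notes. The study's methods name minimap2 and FLAIR for long reads of embryonic pallium tissue. Whether they also made this table, and whether strand was used, is not given in the sources used here. Isoform counts were summed to 14949 genes by the Ensembl gene in each name. The 208527 entries that name no gene hold 17.2% to 30.2% of reads and were left out. Gene positions come from GENCODE M21 (GRCm38) and promoters from RefSeq (8 of 9 members matched).

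The 9 members and all gene lists were chosen with earlier results of these data known. CPM were scaled by TMM factors of 0.937, 1.02, 1.02 and 1.03. Ratios carry exact conditional binomial 95% intervals. The additive fit used edgeR 4.0.16 with its default expression filter, which kept 9882 genes (DESeq2 1.42.0 as the alternative), and usage Fisher's exact test (scipy) and diffSpliceDGE, all adjusted by Benjamini-Hochberg over every feature tested. Isoforms needed 10 reads over both libraries in genes with 20 reads in each. Scripts were tested on simulated counts. Named genes are the members, genes of the lists called in a comparison with the control, and the 5 genes nearest to H2afj. Fixed cell type markers are named for the check of the samples, and Rpl3-ps1, Cenpa and Hist1h2ag were picked for naming after their values were seen. Transcript length classes were added after the ratios were seen. The alternatives were other scalings, filters, plain transcripts, model terms and libraries left out.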

Additional observations from a re-analysis of the deposited data

Results flagged for a closer look

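The ratio of the library labelled Tut1-deleted to its counterpart had opposite signs with and without Trp53 deletion for 3 of the 9 members, with both counting intervals excluding 0, as it had for 16.6% of the 9882 measured genes (10.9% in the direction of these 3). H2afz had a log2 ratio of -0.29 for Tut1f/f;Cre against Tut1f/f and 0.12 for Tut1f/f;Trp53f/f;Cre against Trp53f/f;Cre. H3f3a had -0.36 and 0.42, and H3f3b -0.93 and 0.18, the latter -0.48 with plain transcripts alone. With 1 library per genotype the difference between the contrasts was not tested. The first contrast also compares Cre mRNA with none, and the second does not.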

How the results depend on the processing

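No paired analysis was possible because each genotype is 1 library. Without a 2-fold requirement the members lower than the control became 7, 6 and 7 of 9 (28.3%, 30.1% and 24.9% of all measured genes), those lower and higher against Trp53f/f;Cre 2 and 3 (1348 and 1913 of 9882 genes), and those lower and higher against Tut1f/f;Cre 3 and 3 (1009 and 1433 genes). A mean of 50 reads removed H2afy2 (0 higher in each comparison). With plain transcripts alone 2 members were lower in Tut1f/f;Cre and in Tut1f/f;Trp53f/f;Cre, the summed levels of the Cre libraries were 5559, 6299 and 6399 CPM, and 0 member isoforms were called in Tut1f/f;Cre or Trp53f/f;Cre (H2afy share -7.16 and -9.12 points). At 20 points in place of 10 the H2afy share in Trp53f/f;Cre (-19.7 points) and with it the count (0) were no longer called. Scaling by the library total moved every ratio to the control of a comparison up by the same amount (H2afj to -1.93, -3.16 and -3.45) and gave summed levels of 6389, 5173, 5646 and 6148 CPM. For Trp53 status 0 genes were called with that term alone or with plain transcripts and 2 with no filter; leaving out each library in turn, with the Tut1 term dropped as well, gave 0 to 1435 (15 without Tut1f/f and 1435 without Tut1f/f;Cre). The cause of these shifts was not tested, other than fewer genes or reads by construction. The H2afj ratios to the control kept their direction under each scaling, filter and choice of transcripts tried. H2afj was chosen by its fall, and its ratios are large beside these shifts, so nothing is read from this. Some ratios near 0 changed sign, among them H2afz, H2afy and H1f0 in Trp53f/f;Cre with scaling by the library total (0.03, 0.08 and 0.11). H3f3a in the double-deleted library did so with the same scaling, as given above. With plain transcripts H2afz in Trp53f/f;Cre (0.03) and H2afy in Tut1f/f;Cre (-0.32) changed sign. So did H2afz in the double-deleted library with DESeq2 size factors (-0.01). Depth limits H2afy2, with 1 read in the control.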

Other observations

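Of 2 other histone variants, H1fx, a linker histone, was lower in Tut1f/f;Cre (23.1 CPM) and Tut1f/f;Trp53f/f;Cre (14.6 CPM) than in the control (51.5 CPM), with 41.6 CPM in Trp53f/f;Cre. Its log2 change for Tut1 status was -1.33 (edgeR, SE 0.554, adjusted p = 1). Cenpa, the centromeric H3, had 285, 239, 304 and 309 CPM and was not called. Among 11 proliferation genes Mki67 was higher in all 3 Cre libraries and Ccnb1 lower in Tut1f/f;Cre and Trp53f/f;Cre, with medians of -0.41, -0.20 and -0.21. Of all measured genes 12.7%, 12.5% and 10.3% were higher and 13.3%, 15.3% and 9.76% lower, so nothing is read from these counts. Of 5 measured factors that process replication-dependent histone mRNA, Casp8ap2 was higher in all 3 (10.3 CPM in the control, 20.8, 24.1 and 23.4). This count stands against the same shares of all measured genes, and nothing is read from it. Markers of neurons summed to 67.7 to 84.7 CPM and those of the oligodendrocyte lineage to 287, 498, 593 and 397 CPM.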
